A study of Mus musculus with 4 samples.

Results

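Tendon fibroblasts 1 is the name that the authors of a single-cell catalogue of the mouse Achilles tendon gave to 173 of the 1191 cells in their table, 14.5% of all cells. The members were taken from the deposited cell table, which assigns each cell to a library and to 1 of 13 populations, and the working description of these cells was cartilage-like tenocytes. Transcripts were counted by droplet-based 3-prime RNA sequencing (10x Genomics Chromium, version 3 chemistry), in which a unique molecular identifier (UMI) makes each captured molecule count once. The 4 libraries form 1 group, all from the Achilles tendon of male C57Bl/6 mice aged 6 weeks, and the labels name no treatment and no altered allele. Whether the cells of a library came from 1 mouse or from several is not stated, so the spread between libraries may be partly technical, and the design compares populations within libraries and not conditions.

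Tenocytes are the fibroblasts that lay down and maintain the collagen I fibrils of tendon. Where a tendon bends around bone or inserts into it, the tissue is compressed, and cells there are known to make aggrecan and other cartilage proteins beside the tendon matrix, in what is called fibrocartilage. Of the 5 genes that mark this population, Chad encodes chondroadherin, a leucine-rich protein of cartilage matrix, and Comp encodes cartilage oligomeric matrix protein, a thrombospondin that binds collagens. Ibsp and Spp1 encode bone sialoprotein and osteopontin, acidic proteins best known from mineralized tissue, and Clu encodes clusterin, a secreted chaperone.

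The promoters of Chad, Ibsp and Spp1 are printed because these genes had their highest level of all 13 populations here and Chad varied with each of the other two from cell to cell. Each is the stretch of 250 bases that ends just before the start of the gene in RefSeq (GRCm38.p6), 5′ to 3′ on the gene's strand, with motif letters in capitals. Of 6 genes looked up in that table, 4 were found, and Clu and Comp were not among them.
Chad, chr11:94564797-94565046, plus strand: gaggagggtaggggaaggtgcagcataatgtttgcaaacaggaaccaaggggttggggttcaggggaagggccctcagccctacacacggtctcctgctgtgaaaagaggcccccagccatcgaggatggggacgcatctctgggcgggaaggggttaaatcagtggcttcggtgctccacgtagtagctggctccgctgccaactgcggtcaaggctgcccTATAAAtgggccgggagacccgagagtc
Ibsp, chr5:104299037-104299286, plus strand: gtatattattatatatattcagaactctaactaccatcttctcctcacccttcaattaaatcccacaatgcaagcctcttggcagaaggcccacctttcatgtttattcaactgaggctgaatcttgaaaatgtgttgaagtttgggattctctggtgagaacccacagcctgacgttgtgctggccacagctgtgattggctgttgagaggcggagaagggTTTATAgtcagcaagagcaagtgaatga
Spp1, chr5:104434861-104435110, plus strand: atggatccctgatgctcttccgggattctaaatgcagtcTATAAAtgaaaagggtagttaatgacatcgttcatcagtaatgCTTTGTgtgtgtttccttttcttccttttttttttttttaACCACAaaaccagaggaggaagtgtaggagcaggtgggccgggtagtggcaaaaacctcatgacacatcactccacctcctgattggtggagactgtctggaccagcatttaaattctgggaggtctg
The capitals in Chad are a TATA box (TATAAA) whose first base lies 28 bases before the start, at position -28. Ibsp has the same letters on the other strand (TTTATA) at the same position, -28. Spp1 has TATAAA at -211, the core of a SOX motif on the other strand (CTTTGT, searched as ACAAAG) at -168 and the core of a RUNX motif on the other strand (ACCACA, searched as TGTGGT) at -128. RefSeq lists another start for Spp1, and that window held CTTTGT at -243. Among 32851 promoter windows of this length, TATAAA was found on either strand in 12.4%, the SOX core in 16.5% and the RUNX core in 14%. An E-box of the scleraxis type (CAGATG, in 14.4% of windows) and the AP-1 motif (TGANTCA, in 6.75%) were also searched and do not occur in these windows. A match describes letters in the sequence and is not a measured binding site.

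In the GENCODE vM21 annotation of GRCm38, Ibsp (chr5:104299171-104311469, plus strand) and Spp1 (chr5:104435118-104441050, plus strand) lie 124 kb apart in the cluster of acidic phosphoprotein genes. Dmp1 (chr5:104202613-104214102), the dentin matrix protein gene of the same cluster, ends 85.1 kb before Ibsp and had 0 UMIs in the 173 cells. Chad (chr11:94565047-94569127, plus strand) lies inside the span of Acsf2 on the opposite strand (chr11:94557102-94601871). The strand setting of the authors' counting is not given in the sources used here, so reads of Acsf2 and Chad are not known to have been kept apart.

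Libraries 1, 2, 3 and 4 held 60, 9, 83 and 21 of these cells, and their summed UMIs were 628430, 127976, 741849 and 264849. As a share of all cells of a library, this was 10.3% in library 1 (exact Clopper-Pearson 95% interval 7.99 to 13.1), 3.66% in library 2 (1.69 to 6.83), 32.4% in library 3 (26.7 to 38.5) and 19.3% in library 4 (12.3 to 27.9). The share was lowest in library 2 and highest in library 3, with intervals that do not meet. The median cell carried 8824 UMIs and 2591 genes, against 7525 UMIs for all other cells, and the median mitochondrial share was between 2.95% and 4.49% in the 4 libraries. No cell barcode was shared between libraries, and 3 cells had more than 3 times the median UMIs of their library. How doublets were treated is not given in the sources used here. Library 2 rests on 9 cells, so every value from it is the least precise. All intervals here cover counting error only.

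Chondroadherin and clusterin were high in every library, with little spread. Levels are given in CPM, the UMIs of a gene per 1000000 summed UMIs of the population in 1 library. Chad stood at 13712, 17972, 14535 and 13551 CPM in libraries 1 to 4, while all other cells of the same libraries stood at 59.7, 7.53, 414 and 34.2 CPM. The level among the other cells was highest in library 3, where 78 of them are tendon fibroblasts 2, and lowest in library 2, where 2 are, and the 2 sides did not overlap. Of all 8501 genes tested, 6.34% lay above the other cells without overlap and 27.3% below. Clu stood at 14200, 14237, 15274 and 14000 CPM against 120, 242, 419 and 130 CPM in the other cells, again with no overlap. The next highest population for Clu was endothelial cells 2, at a mean of 694 CPM.

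Comp, the thrombospondin of cartilage and tendon, stood at 11540, 13565, 12074 and 17263 CPM, and at 145, 19.8, 2075 and 258 CPM in the other cells. Library 4 was the highest in these cells and library 3 the highest in the others, where tendon fibroblasts 2 carried 3637 CPM. Spp1 stood at 8649, 8338, 5563 and 6913 CPM and its next population was nerve cells 1, at a mean of 1284 CPM. In library 2, however, 1 of the 9 cells held 80.6% of the Spp1 UMIs, and the level without it was 2057 CPM. Ibsp stood at 1679, 31.3, 1843 and 1318 CPM, so that library 2 was far below the others, with 4 UMIs in 2 of its 9 cells. In libraries 1, 3 and 4, Ibsp was counted in 45 of 60, 58 of 83 and 16 of 21 cells. The highest mean of Ibsp elsewhere was 6.73 CPM, in nerve cells 3.

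**Figure D1:**
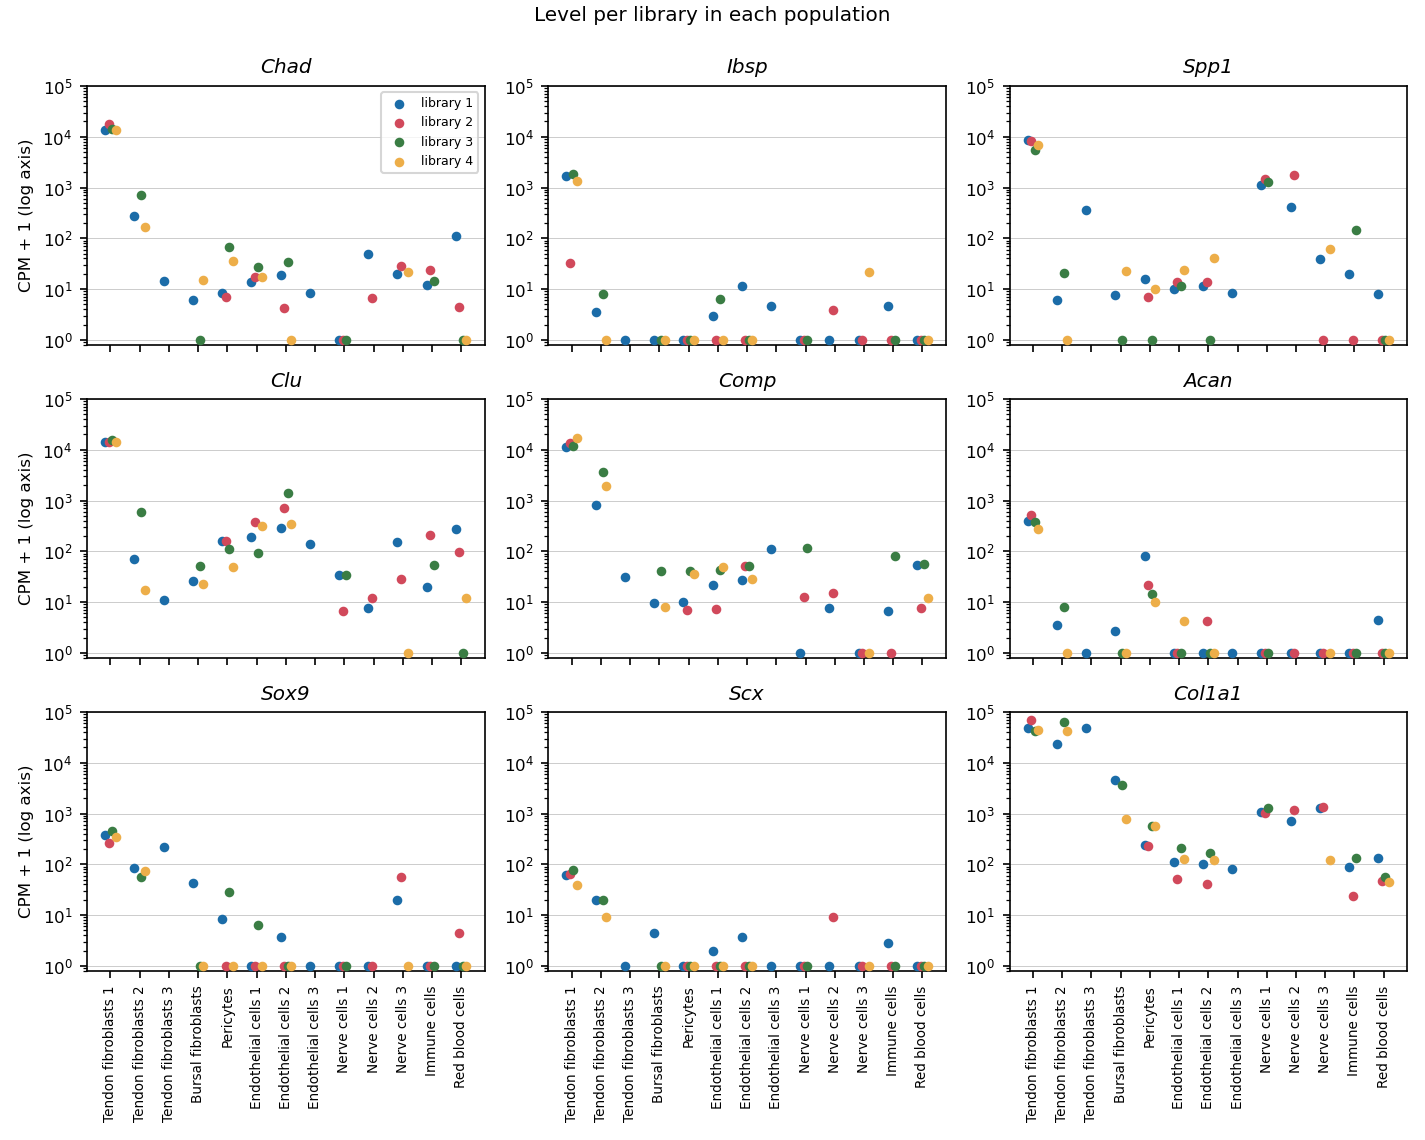
Level of 9 genes in every population and library, as CPM + 1 on a log axis, with 1 point per library that has 5 or more cells of the population. The 5 marker genes, Acan, Sox9 and Scx have their highest points in tendon fibroblasts 1, with Ibsp of library 2 at 31.3 CPM as the low point, while Col1a1 is similar in the 3 tendon fibroblast populations.

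The markers fixed for other cell types placed these cells with tenocytes and, in part, with cartilage. Of 8 tenocyte markers, 5 had their highest mean over libraries here: Scx, Mkx, Thbs4, Fmod and Col1a1. For Col1a1 and Thbs4 the order was not stable between libraries. In library 3, tendon fibroblasts 2 were higher for both, at 63313 against 42185 CPM of Col1a1 and 4363 against 2897 CPM of Thbs4. In library 1, tendon fibroblasts 3 were slightly higher for Col1a1, at 49517 against 47351 CPM. The highest Col1a1 level here was 69708 CPM in library 2, where 1 of 9 cells held 57.3% of the UMIs and the level without it was 37232 CPM. Scx, the transcription factor scleraxis of the tendon lineage, stood at 60.5, 62.5, 76.8 and 37.8 CPM, above its level in tendon fibroblasts 2 in every library with both (19.2, 18.6 and 8.06 CPM in libraries 1, 3 and 4). Of 12 chondrocyte markers, 9 are in the count table. Aggrecan (Acan), the large proteoglycan that holds water in cartilage, stood at 398, 524, 377 and 276 CPM, and its next population, pericytes, at a mean of 30.2 CPM. Sox9, the transcription factor of the chondrocyte lineage, stood at 374, 266, 458 and 351 CPM, with tendon fibroblasts 3 next at 219 CPM in library 1. Hapln1, which links aggrecan to hyaluronan, stood at 200, 344, 174 and 355 CPM. The defining collagen of hyaline cartilage was near 0: Col2a1 had 1 UMI in all 173 cells, Col9a1 and Col9a2 had 3 each, Col9a3 had 4 and chondromodulin (Cnmd) had 1. The description as cartilage-like therefore held for the aggrecan, Hapln1 and Sox9 side of the cartilage program and not for collagens II and IX, and the cells are called tendon fibroblasts 1 throughout.

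Markers of bone cells and of the other tissues were low. Runx2, the master transcription factor of osteoblasts, and Alpl, the alkaline phosphatase of mineralizing cells, had 10 UMIs each over all 173 cells, Bglap had 3, and Dmp1 and Phex had 0. The 7 osteoblast and osteocyte markers in the table summed to between 0 and 31.8 CPM per library. The 6 endothelial markers summed to between 7.81 and 30.2 CPM, the 6 mural cell markers to between 37.8 and 68.7 CPM, the 6 Schwann cell markers to between 37.8 and 93.8 CPM and the 7 immune markers to between 7.55 and 14.3 CPM. Hemoglobin genes, which are near-identical copies, summed to between 51.2 and 305 CPM. The marker list of bursal lining cells summed to between 6385 and 9385 CPM, nearly all of it Prg4 (lubricin, the boundary lubricant of gliding surfaces) at 6653, 8752, 6983 and 5173 CPM. Bursal fibroblasts themselves stood at 192126, 101472 and 100270 CPM of Prg4 in libraries 1, 3 and 4.

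The closest population in the table was tendon fibroblasts 2. Across genes, which are not independent replicates, log2(CPM + 1) of the summed cells correlated with tendon fibroblasts 2 of the same library at r = 0.889, 0.912 and 0.805 in libraries 1, 3 and 4. With tendon fibroblasts 3, r was 0.784 in library 1, the only library with 5 or more cells of it, and with bursal fibroblasts it was between 0.776 and 0.826. Between libraries, tendon fibroblasts 1 correlated with themselves at r = 0.838 to 0.940, with the 3 lowest values all from pairs with library 2.

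Differences between populations were fitted with the quasi-likelihood model of edgeR on the summed counts, with the library as a block, and a gene is called higher or lower at an adjusted p under 0.05. The authors formed the populations from these same counts, so a call gives the size of a difference against the spread between libraries and is no test of whether the population is distinct. Against all other cells, 1999 of 8501 genes tested (23.5%) were called, 869 of them higher (10.2%) and 1130 lower (13.3%), with a median log2 fold change of -0.03 over all genes. Left out in turn, library 1 had the most effect, with 1290 calls without it. Against the other fibroblast populations alone, 553 of 5455 genes were called.

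Beside Ibsp, Chad and Spp1, the 10 largest rises against all other cells were in Meltf, Atp6v0a4, Angptl7, Clec3a, Cilp2, Tnfrsf11b and Cilp. Angptl7, a secreted angiopoietin-like protein known from cornea and trabecular meshwork, stood at 6239, 4868, 12024 and 10104 CPM against 97.3, 4.71, 1431 and 26.1 CPM, a log2 fold change of 7.29 ± 1.18 (SE, n = 4 libraries). Libraries 3 and 4 were the higher pair, and no value of the other cells reached them. Atp6v0a4, a subunit of the vacuolar proton pump, stood at 250, 250, 231 and 245 CPM against 0.804, 0.471, 2.62 and 0 CPM, the narrowest spread of these genes (SD 9.21 CPM). Clec3a, a C-type lectin known from cartilage, stood at 224, 477, 262 and 291 CPM against 0.201, 0.471, 12.4 and 0.901 CPM. Tnfrsf11b encodes osteoprotegerin, the decoy receptor that restrains osteoclast formation. It stood at 210, 609, 84.9 and 438 CPM, a wide spread between libraries, against at most 6.3 CPM in the other cells.

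The 10 largest falls against all other cells were all in genes with 0 UMIs in the 173 cells: Adgrf5, Gpihbp1, Kitl, Podxl, Gatm, Cd300lg, Igfbp3, C1qa, Tie1 and Pdgfb. They include Tie1 and Gpihbp1 of endothelium and the complement gene C1qa of macrophages. Against a floor of 3 counts over the population, they were at least 57.6-fold (Igfbp3) to at least 257-fold (Adgrf5) lower. Collagen I itself was higher, with a log2 fold change of 3.34 ± 0.88 for Col1a1, but its call was lost without library 1 (3.5) and without library 4 (3.27). It was also lost without the library block (2.33) and against the other fibroblast populations alone (1.13, with Col1a2 at 0.85). Of 24 genes of the endoplasmic reticulum and secretory route, 13 were called higher and 0 lower (median 0.68), and of 20 collagen-folding genes tested, 11 were higher and 0 lower (median 0.85). Those 13 fell to between 5 and 10 when a library was left out, with 5 without library 4. The 11 became between 7 and 13, with 7 without library 4.

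Tendon fibroblasts 2, the population most like this one, was compared in libraries 1, 3 and 4, which hold 67, 78 and 9 of its cells. Of 7043 genes tested, 572 (8.12%) were called, 305 higher in tendon fibroblasts 1 (4.33%) and 267 lower (3.79%), with a median log2 fold change of 0.01. Most cartilage genes that could be tested were higher. Of 23 in the count table, 15 passed the count filter, and Col2a1 and the collagen IX genes, near 0 here, did not. Among the 15, 11 were called higher and 0 lower, with a median log2 fold change of 3.12. Between 10 and 12 were called when a library was left out. The list was chosen with results of these data known and holds Chad and Comp, so the count describes the population and is no independent evidence of its direction. Aggrecan had the largest log2 fold change of the list, 6.51 ± 0.40 (SE, n = 3 libraries), from 2.56, 6.97 and 0 CPM in tendon fibroblasts 2. Sox9 differed by 2.71 ± 0.25, from 83.2, 55.8 and 72.5 CPM, and Hapln1 by 4.68 ± 0.51. None of these 3 genes overlapped between the populations. Of all 7043 genes, 8.02% lay above tendon fibroblasts 2 without overlap and 17.9% below.

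**Figure D2:**
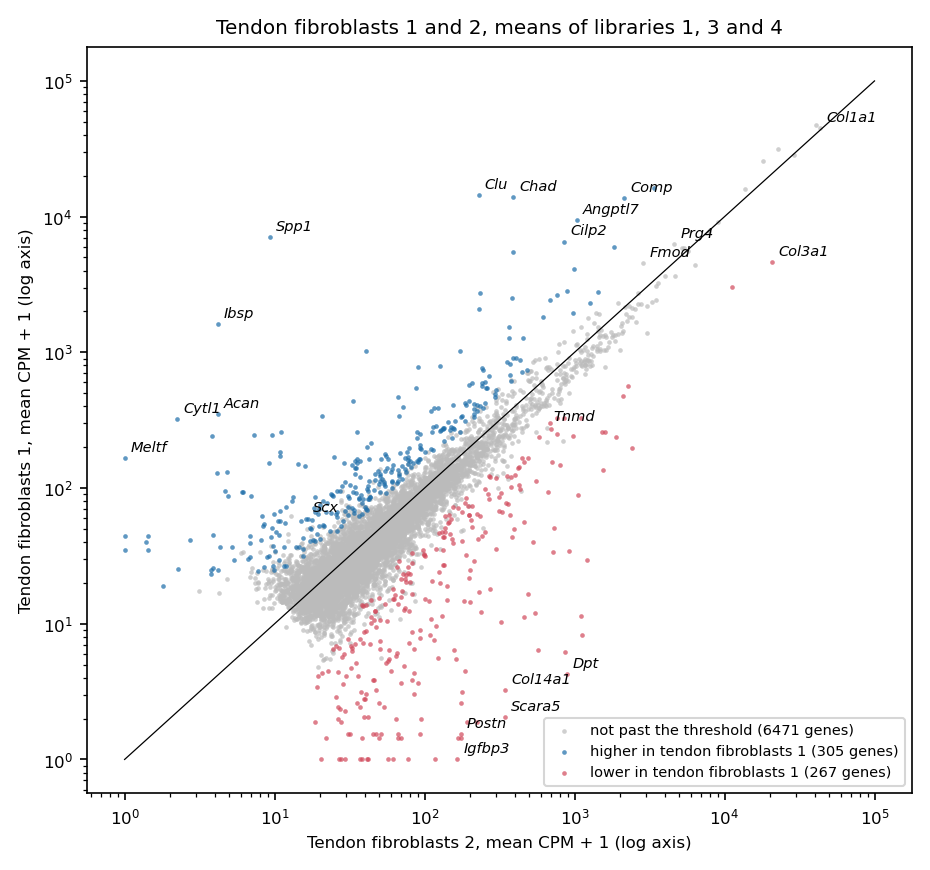
Mean CPM + 1 of libraries 1, 3 and 4 in tendon fibroblasts 1 against tendon fibroblasts 2, both on log axes, with 1 point per gene tested and the line of equal level. The 305 genes called higher reach up to Spp1, Clu and Chad, the 267 called lower include Col3a1, Dpt and Postn, and Col1a1 lies near the line.

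Cilp and Cilp2 encode the cartilage intermediate layer proteins. Cilp2 stood at 5340, 6907 and 7344 CPM against 232, 1540 and 765 CPM (log2 fold change 3.51 ± 0.46), high in all 3 libraries. Cilp stood at 2296, 5060 and 9062 CPM against 266, 554 and 346 CPM (3.81 ± 0.37), with the lowest level in library 1 and the highest in library 4. Ucma, a Gla-rich protein of cartilage, stood at 85.9, 173 and 253 CPM against 3.84, 25.6 and 0 CPM (3.66 ± 0.46). Frzb, a secreted Wnt antagonist of cartilage, stood at 161, 66.1 and 56.6 CPM against 6.4, 4.65 and 0 CPM (4.51 ± 0.40). Trps1, a transcriptional repressor with a role in chondrocytes, differed by 1.47 ± 0.24. Col11a1, the minor fibrillar collagen of cartilage, differed by 1.56 ± 0.40, and its call was lost without library 1 (0.94) and without library 4 (1.46).

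Of 16 genes of mineral control in the count table, 6 could be tested. Of these, 4 were called higher and 0 lower, with a median of 1.74, and between 2 and 4 when a library was left out. The list was chosen with results of these data known and holds the markers Ibsp and Spp1. The count therefore describes the population and is no independent evidence of its direction. Spp1 differed by 9.46 ± 0.60 and Ibsp by 8.71 ± 0.40, from 21 and 8 UMIs in all the tendon fibroblasts 2 cells of the 3 libraries. Enpp1 and Ank supply extracellular pyrophosphate, an inhibitor of mineral growth. Enpp1 stood at 151, 171 and 185 CPM against 39.7, 86.0 and 105 CPM, and Ank at 318, 314 and 525 CPM against 47.4, 205 and 88.6 CPM, so neither overlapped. Without library 1 both calls were lost (Enpp1 1.04, Ank 1.49), and that of Ank also without library 4 (1.72). Mgp, the matrix Gla protein that inhibits calcification, was not called, with a log2 fold change of 0.45 ± 0.21.

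Genes of the tendon matrix were mixed. Of 20 tendon genes tested, 3 were called higher (Scx, Mkx, Col12a1) and 4 lower (Col14a1, Col3a1, Kera, Lum), with a median of 0.21. Between 1 and 5 were higher when a library was left out. Scx differed by 2.03 ± 0.31. Mkx, the transcription factor mohawk, differed by 1.4 ± 0.36, with its call lost without library 1 (1.03) and without library 4 (1.27), and Col12a1 by 1.23 ± 0.24, lost without library 1 (1.0). Col1a1 and Col1a2 were not called, at 0.36 ± 0.36 and 0.29 ± 0.33, nor was Tnmd, the membrane protein tenomodulin, at -0.88 ± 0.46. Collagen III, the thinner fibril collagen, was lower: Col3a1 stood at 4203, 3966 and 5675 CPM against 18682, 25199 and 18729 CPM, a log2 fold change of -1.98 ± 0.29. The populations did not overlap in Col3a1, but its call was lost when sums of at least 1 cell were allowed (-1.38), which adds library 2 with 2 cells of tendon fibroblasts 2. Col14a1, a fibril-associated collagen, had 3 UMIs here against 558 (-7.10 ± 0.37).

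The small leucine-rich proteoglycans, which bind collagen fibrils and set their width, divided in the same way, with 3 of 11 tested called higher and 4 lower (median 0.13), and 3 to 5 higher without 1 library. Beside Chad, Prelp (2128, 3003 and 3409 CPM against 1178, 873 and 628 CPM, log2 fold change 1.87 ± 0.31) and Omd (2.19 ± 0.33) were higher. Prelp did not overlap, and library 4 differed the most. Lum (-2.25 ± 0.43), Kera (-2.19 ± 0.34), Ogn (-2.68 ± 0.33) and Aspn were lower, and the call of Kera was lost without library 3 (-1.48). Lum varied within tendon fibroblasts 1, at 172, 151 and 11.3 CPM in libraries 1, 3 and 4. Decorin (Dcn), the most abundant of the family by UMIs, was not called (0.77 ± 0.30), nor was Fmod, fibromodulin (1.29 ± 0.43).

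Enzymes that modify collagen differed gene by gene. Plod2, the lysyl hydroxylase of collagen telopeptides, stood at 1018, 875 and 1189 CPM against 141, 188 and 185 CPM (2.76 ± 0.25), and the populations were far apart in every library. Lox, the lysyl oxidase that starts crosslinks, stood at 1442, 2413 and 2398 CPM against 174, 322 and 193 CPM (3.35 ± 0.26). Its relative Loxl1, known from elastic fibres, went the other way, at 12.7, 17.5 and 3.78 CPM against 464, 126 and 121 CPM (-3.90 ± 0.42). Of 20 collagen-folding genes tested, 3 were called higher (P3h2, P4ha1, Plod2) and 0 lower, with a median of 0.12. Of 10 crosslinking and propeptide-processing genes, 2 were higher (Lox, Pcolce2) and 3 lower (Bmp1, Loxl1, Pcolce). Pcolce and Pcolce2, which both enhance removal of the collagen propeptide, thus had opposite signs, -1.57 ± 0.21 and 2.54 ± 0.56, though the call of Pcolce2 was lost without library 3 (1.72) and without library 4 (2.21), and that of Pcolce with sums of at least 1 cell (-1.27).

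Elastic fibre genes were lower. Of 12 tested, 7 were called lower and 1 higher, with a median of -1.59, and 4 to 8 were lower when a library was left out. Mfap5, a microfibril protein, stood at 15.9, 10.8 and 3.78 CPM against 1087, 250 and 48.3 CPM (-5.12 ± 0.39), Eln, elastin, at 6.37, 12.1 and 7.55 CPM against 313, 24.4 and 16.1 CPM (-3.14 ± 0.74), and Fbln5, a fibulin, differed by -1.79 ± 0.31. In all 3 genes the populations did not overlap, and library 1 of tendon fibroblasts 2 was the highest. For Eln the wide gap was in library 1 alone. In libraries 3 and 4 both populations were low, so that its separation there rests on few UMIs. Matricellular proteins were divided, with 7 of 23 called higher and 6 lower (median 0.18). Thbs1, thrombospondin 1, stood at 729, 1108 and 1246 CPM against 93.5, 25.6 and 0 CPM (4.70 ± 0.59), and Ctgf, connective tissue growth factor, at 1771, 3250 and 3209 CPM against 357, 169 and 177 CPM (3.74 ± 0.39). Postn, periostin, had 1 UMI against 307 (-7.58 ± 0.55).

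Proteases and their inhibitors also separated the populations. Mmp2, gelatinase A, stood at 28.6, 52.6 and 18.9 CPM against 795, 1244 and 709 CPM (-4.59 ± 0.25), and its activator Mmp14 at 100, 40.4 and 60.4 CPM against 465, 258 and 209 CPM (-2.08 ± 0.26). Both were far lower in every library. Among 11 proteases tested, 3 were called higher and 4 lower (median -0.38), and 1 or 2 were called higher when a library was left out. Of the inhibitors, 3 of 10 were called higher (Cst3, Serpine2, Timp3) and 1 lower. Cst3, cystatin C, stood at 19983, 13979 and 14752 CPM against 2956, 4837 and 2352 CPM (2.52 ± 0.34). Timp3, a metalloprotease inhibitor held in the matrix, stood at 1437, 1294 and 1846 CPM against 339, 359 and 387 CPM (2.25 ± 0.23).

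**Figure D3:**
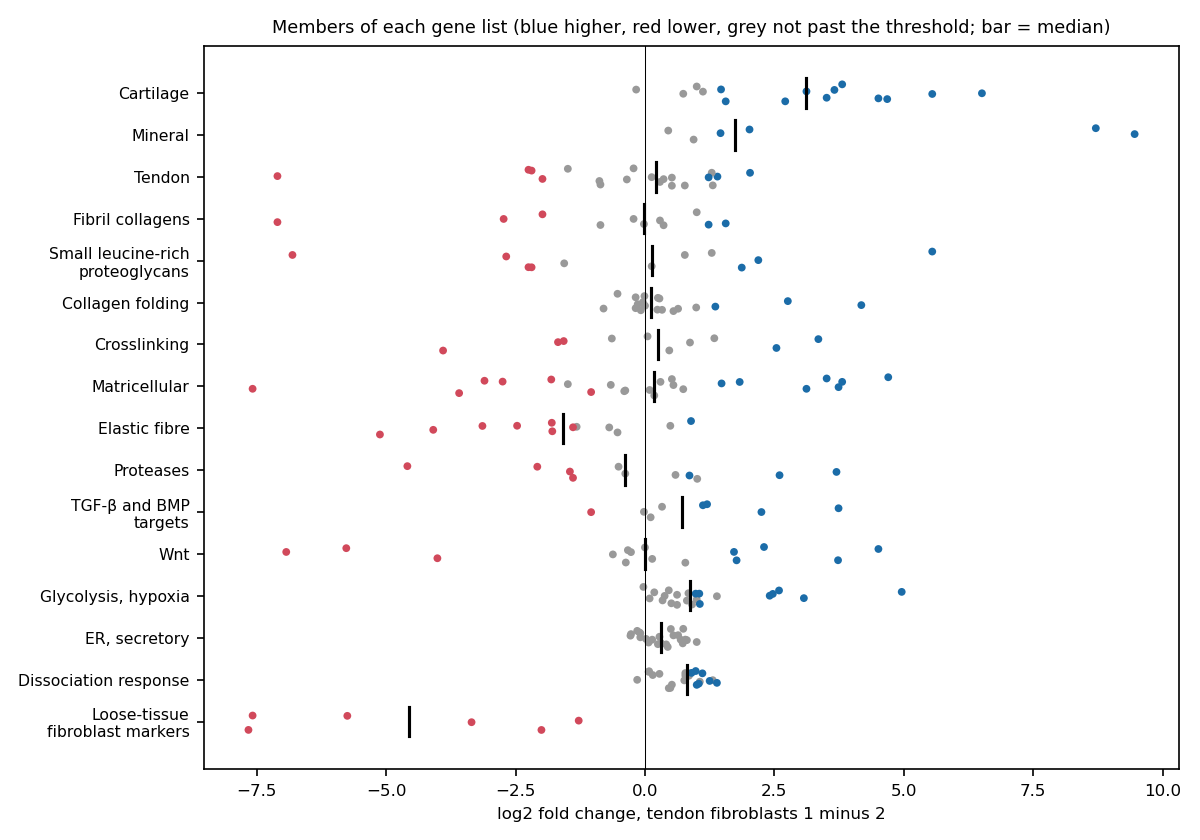
Log2 fold change of every tested member of 16 gene lists between tendon fibroblasts 1 and 2, with 1 point per gene (blue called higher, red called lower, grey not called) and a bar at the median of the list; the vertical position of points within a row is spread at random. Cartilage genes lie to the right with a median of 3.12, and elastic fibre genes (-1.59) and markers of loose-tissue fibroblasts (-4.55) lie to the left. A gene could be tested through counts in 1 population alone.

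Fibroblasts of loose connective tissue express Dpt, Cd34, Ly6a, Pdgfra, Clec3b and Scara5, and all 6 of these, the tested members of that list of 8, were called lower than in tendon fibroblasts 2, with a median of -4.55. Dpt, dermatopontin, stood at 1.59, 8.09 and 0 CPM against 1021, 902 and 725 CPM (-7.58 ± 0.44), and Scara5 had 2 UMIs against 585 (-7.66 ± 0.46). Both genes passed the count filter through tendon fibroblasts 2 alone. The count of 6 therefore describes the populations and is no independent evidence of a direction. The other genes of the 10 largest falls were Igfbp3, Krtdap, Postn, Prss23, Cd248, Col14a1, Sfrp4 and C4b. Igfbp3 and Krtdap had 0 UMIs here, which makes them at least 121-fold and 59-fold lower, but the call of Igfbp3 was lost with DESeq2. The other genes of the 10 largest rises, beside those already given, were Meltf, Cytl1, Atp6v0a4, Cox4i2 and Egln3. Meltf, melanotransferrin, an iron-binding protein known from cartilage, had 199 UMIs against 0 and was at least 71.6-fold higher.

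Signalling genes were described by role. Among ligands of the TGF-β and BMP family, which direct tendon and cartilage formation, 3 of 10 tested were called higher (Bmp2, Gdf5, Tgfb1) and 1 lower (Gdf10), with a median of 0.25, and between 0 and 3 were higher when a library was left out. Bmp2 stood at 162, 137 and 276 CPM against 37.1, 79.0 and 209 CPM (1.30 ± 0.33), and library 4 of tendon fibroblasts 2 reached above 2 of the libraries of tendon fibroblasts 1. Gdf5, a joint and tendon growth factor, stood at 89.1, 60.7 and 41.5 CPM against 1.28, 25.6 and 0 CPM (2.74 ± 0.67). Both calls were lost without library 1 (0.75 and 1.62), as was that of Tgfb1 (1.10), and that of Gdf5 also without library 4 (2.61). Of 10 receptors, 1 was called higher (Bmpr1b) and 0 lower (median 0.23), and of 7 secreted inhibitors, 0 were higher and 2 lower (Fst, Fstl1; median 0.05). Fst, follistatin, stood at 1.59, 14.8 and 7.55 CPM against 56.4, 134 and 88.6 CPM (-3.40 ± 0.37). Of 8 target genes, 4 were higher (Ctgf, Id1, Id2, Skil) and 1 lower (Tgfbi; median 0.73), with 2 or 3 higher when a library was left out. The calls of Bmpr1b (1.74), Id2 (1.16), Skil (1.34) and Tgfbi (-0.82) were among those lost without library 1. Bmpr1b (1.58) and Skil (0.70) were also lost without library 3, and Id2 (0.98) without library 4. Id1, a target of BMP signals, stood at 250, 104 and 90.6 CPM against 38.4, 40.7 and 16.1 CPM (2.25 ± 0.35).

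Wnt genes gave 5 calls higher and 3 lower of 15 tested (median 0), and 3 or 4 higher when a library was left out. The 3 lower were Sfrp2, at 1.59, 10.8 and 3.78 CPM against 78.1, 344 and 1281 CPM (-5.77 ± 0.45), Sfrp4 (-6.93 ± 0.49) and Sfrp1 (-4.01 ± 0.78). Among the 5 higher were the antagonists Frzb, Dkk3 and Wif1 and the receptors Fzd8 and Fzd9, of which Dkk3 (1.64) and Fzd9 (1.65) lost their call without library 1 and Dkk3 (1.29) without library 4. Wif1 differed by 3.73 ± 0.43 and was uneven in its own population, at 143, 290 and 15.1 CPM. Of 9 genes of the insulin-like growth factor system, Igfbp5 (1.95 ± 0.26) and Igfbp7 were called higher and Igf1 and Igfbp3 lower. The call of Igfbp5 was lost with sums of at least 1 cell (1.11). The call of Igfbp7 (1.22) was lost without library 1 (1.14) and without library 4 (0.85). Igf1, the growth factor itself, stood at 70, 208 and 125 CPM against 1240, 2039 and 1353 CPM (-3.42 ± 0.25), with no overlap. Of 5 hedgehog pathway genes tested, 1 was called, Cdon (0.81), whose call was lost without library 1 (0.89), 3 (0.86) or 4 (0.67), and the pathway targets Gli1 and Hhip had 1 and 0 UMIs in the 173 cells.

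Genes of glycolysis and the hypoxia response were higher more often than lower against tendon fibroblasts 2, with 8 of 22 called higher and 0 lower (median 0.88), and between 4 and 9 higher when a library was left out. Egln3, an oxygen-sensing prolyl hydroxylase, stood at 185, 84.9 and 121 CPM against 11.5, 0 and 0 CPM (4.96 ± 0.51). Bnip3, a hypoxia-induced mitophagy receptor, stood at 228, 208 and 162 CPM against 49.9, 46.5 and 24.2 CPM (2.41 ± 0.24). Slc2a1, the glucose transporter GLUT1, was low, at 25.5, 44.5 and 37.8 CPM against 6.4, 3.49 and 0 CPM, and its call was lost without library 3 (2.58). Of 23 secretory route genes and 13 mitochondrially encoded genes tested, 0 were called in either direction (medians 0.31 and 0.09). Genes that respond to tissue dissociation moved with this comparison as well, with 7 of 22 called higher and 0 lower (median 0.81), and between 2 and 8 without 1 library. The 24 genes of that list summed to between 7438 and 13081 CPM in these cells, and their part in the other differences was not tested. Dusp1, a phosphatase induced by stress, was the largest of the 7, at 734, 1285 and 517 CPM against 401, 422 and 242 CPM (1.39 ± 0.21).

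Bursal fibroblasts, from the fluid-filled pad beside the tendon, were compared in libraries 1, 3 and 4, where they number 30, 5 and 5. Of 5186 genes tested, 777 (15%) were called, 466 higher in tendon fibroblasts 1 (8.99%) and 311 lower (6%), with a median of 0.02. Of 8 tenocyte markers, Kera could not be tested, and the other 7 were called higher (median 5.42). Tnmd was among them, with 475 UMIs against 0 and at least 80.6-fold higher. A gene could pass the count filter through 1 population alone, as Tnmd did. The count therefore describes the populations and is no independent evidence of a direction. Of 16 cartilage genes tested, of 23 in the count table, 13 were called higher and 3 lower (Matn4, Prg4, Sox5), with a median of 6.5. The same limit applies to this count. Col11a1 (1382 UMIs), Fibin (1310), Ptgis (1133), Ibsp (2771) and Nt5e (547) had 0 UMIs in the bursal cells, which puts them at least 92.8-fold (Nt5e) to 470-fold (Ibsp) higher. Prg4 differed by -4.15 ± 0.38, and its call was lost in thinned cells (-3.92), where libraries 1 and 3 alone gave sums. Clic5, a chloride channel protein of the bursal list, stood at 11.1, 2.7 and 0 CPM against 3204, 3577 and 2770 CPM (-9.11 ± 0.54), and Col22a1, a collagen of tissue junctions, had 1 UMI against 779. The other genes of the 10 largest falls were Pla1a, Cyp1b1, F13a1, Krtdap, Fgl2, Calcrl, Rab37 and Bglap2, the last a near-identical copy of Bglap whose counts are uncertain. Dissociation-response genes were called higher in 14 of 20 tested (median 1.73), and in 4 to 18 when a library was left out. Without library 1, which holds 30 of the 40 bursal cells, 380 genes of 3167 were called.

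Tendon fibroblasts 3 could be compared only by values in library 1, where 45 of its 51 cells lie, with no test. Col1a1 was close, at 47351 CPM here and 49517 CPM there, but Col1a2 was lower here, at 28676 CPM (28259 to 29098) against 43101 CPM (42356 to 43855). Scx and Mkx, at 60.5 and 55.7 CPM here, had 0 UMIs in tendon fibroblasts 3 (exact Poisson upper bound 12.5 CPM), and Acan, Hapln1 and Ibsp also had 0. Chad stood at 13712 against 13.5 CPM, and Plod2 at 1018 against 37.1 CPM. Col3a1 went the other way, at 4203 against 35453 CPM, as did Mgp, at 1521 against 4043 CPM. Sox9 was closer, at 374 CPM (328 to 425) against 219 CPM (169 to 280).

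The cells of tendon fibroblasts 1 were not uniform among themselves. Variation was measured on cells thinned to 2800 UMIs in libraries 1, 3 and 4 (57, 70 and 19 cells, with 18 of the 173 too shallow), as the squared coefficient of variation in excess of Poisson counting error. Over 482 genes with a mean of 0.5 UMI or more, the median excess was 0.305. Chad (0.295), Comp (0.270) and Cilp2 (0.208) were below that median, and Clu (0.453) was above it. Spp1 (1.96), Ibsp (1.92), Cilp (1.92), Acan (1.79) and Sox9 (1.61) varied far more in the mean of libraries 1, 3 and 4. The genes above them were Mgp (11.8), Myoc (7.49), the unnamed transcript AC160336.1 (4.52), Slurp1 (3.96), Clec3b (3.92), Sbsn (3.76), Tnmd (3.38), Meg3 (2.99), Loxl2 (2.60), Fos (2.59), Thbs1 (2.36), Jun (2.19) and Cdkn1a (2.04). Fos, Jun and Cdkn1a are genes known to respond to stress. Several of these values rested on 1 library. Without library 1, Spp1 was at 0.891, Cilp at 1.09 and Sbsn at 2.3. Without library 3, Mgp was at 6.69, Acan at 1.02, Sox9 at 0.642 and Loxl2 at 0.848. Without library 4, Myoc was at 4.42, Tnmd at 1.33 and Meg3 at 0.943. With a library left out, all of them stayed above the median of all genes. In single libraries some did not: Acan (0.256) and Sox9 (0.0431) in library 4 and Tnmd (0.211) in library 1 were below 0.305.

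After thinning, Chad was detected in 98.7% of cells, Clu, Comp and Cilp2 in 100% and Spp1 in 85.2%. These shares leave out the shallow cells, and 1 of those, in library 3 with 2639 UMIs, had 0 UMIs of all 5 markers. Without thinning, Clu and Comp were each in 98.8% of the cells of library 3, and Cilp2 was in 95.2% of the cells of library 4. Ibsp was detected in 60.6%, Cilp in 54.8%, Sox9 in 48.4% and Acan in 47.7%. As a guide to background from free RNA, endothelial cells 1 of all libraries together were thinned to the same depth. Chad was in 4.68% of these cells, Spp1 in 5.26%, Cilp in 1.17%, and Ibsp, Sox9 and Acan in 0%. The origin of these UMIs was not tested, and their level can differ between libraries. Chad in endothelial cells 1 stood at 12.9 CPM in library 1 and 26.4 CPM in library 3. Without thinning, at a median of 8824 UMIs here and 7343 in endothelial cells 1, Acan was counted in 75.0%, 88.9%, 62.7% and 66.7% of the cells of libraries 1 to 4, and Sox9 in 71.7%, 77.8%, 55.4% and 66.7%. Clu was in 24.6% of endothelial cells 1, which express it. Scx was detected in 13.5% and Mkx in 16.8% of thinned cells, against 0% in endothelial cells 1 and 2.74% and 8.90% in tendon fibroblasts 2, so at this depth most cells gave no UMI of either tendon factor.

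Some genes were carried by few cells. Cytl1, a small cytokine-like protein known from chondrocytes, was counted in 9 of 60, 4 of 9, 15 of 83 and 3 of 21 cells of libraries 1 to 4, and the 10% of cells with most of it held 95.8% of its UMIs. In library 1, 2 cells held the larger part of its UMIs, and in libraries 2 and 4 a single cell did. Myoc, myocilin, a secreted protein known from the eye and connective tissue, was counted in 32 of 60, 3 of 9, 47 of 83 and 7 of 21 cells, with levels of 2018, 4806, 1277 and 551 CPM. In library 4, 1 cell held 76.7% of them, and the level was 133 CPM without it. Mgp stood at 1521, 4743, 2185 and 1212 CPM, and single cells held 82.2% of its UMIs in library 2 and 74.7% in library 3, leaving 1073 and 576 CPM. The same cell of library 2, with 27329 UMIs, held most of the Mgp, Spp1 and Cilp there (82.2%, 80.6% and 85.3%), and the same cell of library 3, with 30521 UMIs, was the top cell for Mgp, Cilp and Spp1. Cilp was counted in 26 of 60, 6 of 9, 59 of 83 and 16 of 21 cells of libraries 1 to 4.

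**Figure D4:**
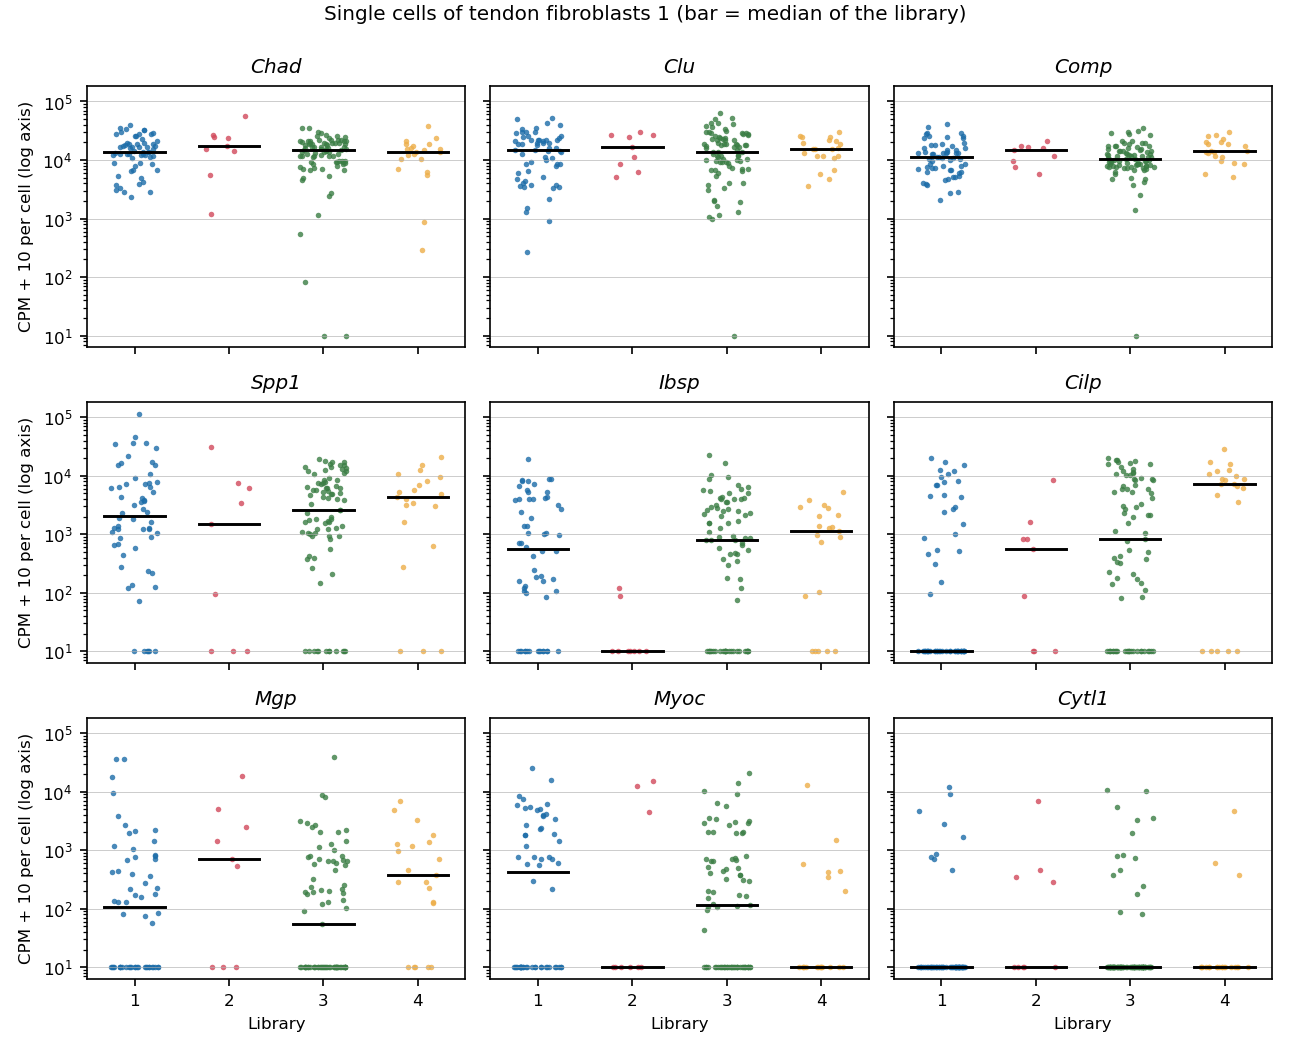
CPM + 10 of 9 genes in each single cell of tendon fibroblasts 1, on a log axis, by library, with a bar at the median of the library; cells with no UMI of the gene lie at 10. Chad, Clu and Comp lie in a band in all 4 libraries, apart from a few low cells, 2 of them at 0 for Chad in library 3, while Ibsp, Cilp, Mgp, Myoc and Cytl1 range from 0 to over 4000 CPM between cells of at least 1 library.

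Chad varied together with Spp1 and with Ibsp within libraries, and most other pairs of the 5 markers did so less evenly. Rank correlations across cells were computed on the thinned counts in libraries 1, 3 and 4 (57, 70 and 19 cells) and are given as a description, since all cells of a library share its preparation. Of 115921 pairs among the 482 genes, 677 (0.584%) had a Spearman correlation of 0.3 or more in all 3 libraries and 128 (0.11%) had -0.3 or less. Chad rose with Spp1 (0.36, 0.32 and 0.74), with Ibsp (0.31, 0.46 and 0.56) and with Serpine2, a secreted protease inhibitor (0.32, 0.38 and 0.69). Ibsp also went with Cst3 (0.41, 0.57 and 0.35) and Adamts5, an aggrecanase (0.31, 0.35 and 0.46), and against Igfbp7 (-0.43, -0.37 and -0.33). Ibsp and Spp1 themselves correlated at 0.15, 0.17 and 0.51, Spp1 and Clu at 0.16, 0.19 and 0.36, Clu and Comp at 0.38, 0.01 and 0.10 and Spp1 and Comp at 0.22, -0.04 and 0.58. Of the 10 pairs of markers, only Chad with Spp1 and Chad with Ibsp passed in all 3 libraries. Chad with Clu narrowly missed, at 0.30 after rounding in library 1 and at 0.34 and 0.43 in libraries 3 and 4. Without thinning, Chad with Clu stood at 0.35, 0.40 and 0.30 and Chad with Ibsp at 0.28, 0.46 and 0.54, so the choice of pairs depends on the cut. Comp and Prg4 had no partner at this size in all 3 libraries.

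Clusterin marked the other end of the collagen genes. Clu correlated with Serpine2 (0.63, 0.46 and 0.60), Ccdc80, Htra1, Gpx3 and Lbp, and negatively with Fmod (-0.38, -0.63 and -0.65), Col1a2 (-0.46, -0.54 and -0.48), Col1a1 (-0.52, -0.52 and -0.31) and Thbs4 (-0.35, -0.49 and -0.37). Col1a1 and Col1a2, the chains of collagen I, correlated at 0.90, 0.93 and 0.95, and Col1a1 also with Thbs4 (0.49, 0.61 and 0.57), Fmod (0.30, 0.62 and 0.43), Col3a1 (0.46, 0.56 and 0.32), Col11a1 (0.47, 0.41 and 0.37) and Tnmd (0.35, 0.31 and 0.47). Col1a1 takes a large part of the UMIs of a cell, with up to 185667, 227719 and 216307 CPM in single cells of libraries 1, 3 and 4, and counts thinned to a fixed total leave fewer UMIs for other genes where 1 is high. Its part in the negative values was not tested. Mgp went with Igfbp7 (0.45, 0.39 and 0.30) and Myoc against it (-0.38, -0.39 and -0.38).

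Immediate-early genes formed a separate group across the cells. Fos had 13 partners, among them Jun (0.75, 0.68 and 0.76), Egr1 (0.63, 0.56 and 0.85), Fosb (0.69, 0.71 and 0.52) and the heat shock gene Hsp90aa1 (0.42, 0.68 and 0.50). Fos was detected in 55.5% of thinned cells here, in 45.6% of endothelial cells 1 and in 61.6% of tendon fibroblasts 2. None of Chad, Ibsp, Spp1, Clu and Comp was a partner of Fos at this size.

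**Figure D5:**
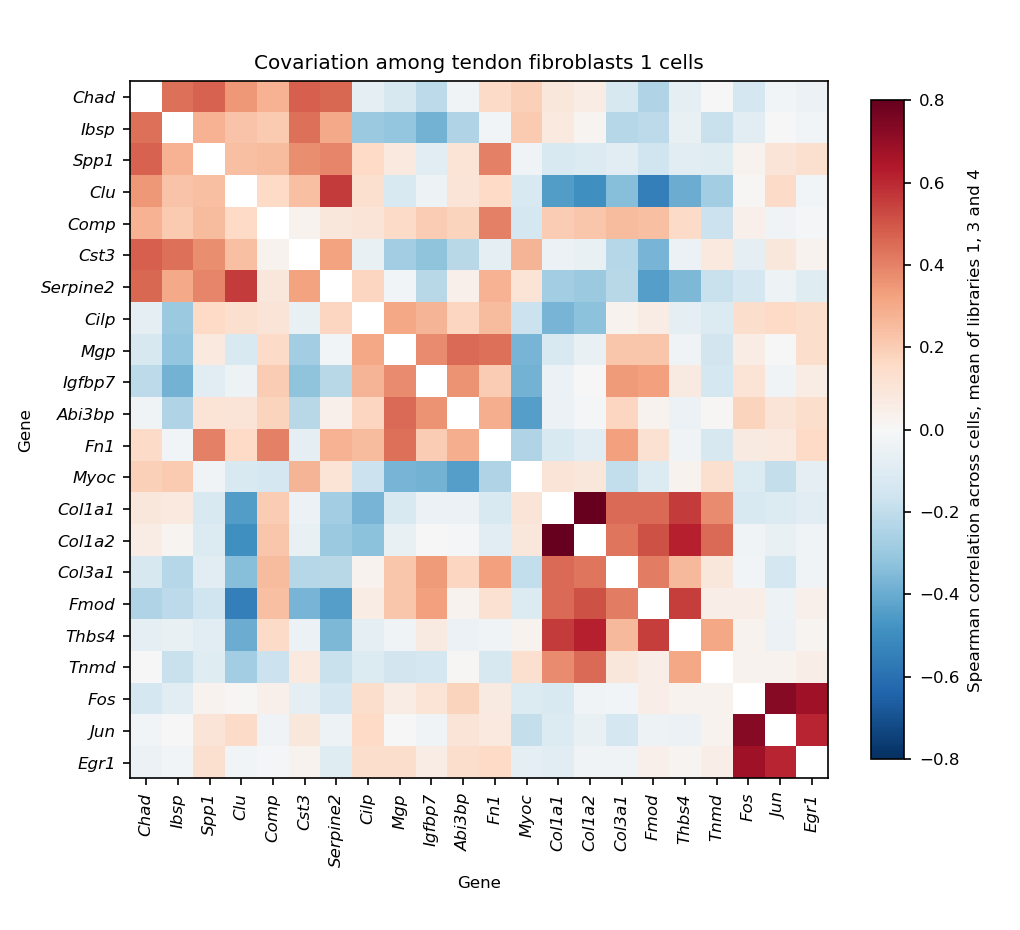
Mean over libraries 1, 3 and 4 of the Spearman correlation across tendon fibroblasts 1 cells for 22 genes, on a colour scale from -0.8 (blue) to 0.8 (red), with the diagonal left blank. Chad, Ibsp, Spp1, Cst3 and Serpine2 form a positive block, Col1a1, Col1a2, Fmod and Thbs4 another that is negative with Clu, and Fos, Jun and Egr1 a separate one.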

How the data were processed

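Single-cell RNA was counted in 4 libraries of mouse Achilles tendon. The authors deposited raw UMI counts per gene and cell, a table of cells with their library and population, and normalized values on a natural log scale, which equal ln(1 + 10000 × count / total of the cell) to within 5.0e-10 and were used only for that check. The submitters' processing notes name Cell Ranger, Seurat 2.3.4, R 3.5.2 and the build mm10, without settings. Of 15750 gene entries, 4 stand under a repeated name (0.0186% of UMIs) and were left out. No cell was removed; the deposited cells have at least 1010 UMIs and at most 19.99% mitochondrial UMIs.

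UMIs were summed per library and population (5 or more cells) and fitted with edgeR 4.0.16 in R 4.3.3 (quasi-likelihood, TMM, filterByExpr, library as block, Benjamini-Hochberg adjustment over all genes tested, threshold 0.05). The block follows from both sums coming from the same library; the correlation of their deviations across genes was between -0.0295 and 0.129. In simulated counts, 200 genes were given a log2 change of 2, and 88% were recovered in the comparison with all other cells (8501 genes), 70% with tendon fibroblasts 2 (7043) and 70.5% with bursal fibroblasts (5186). The simulated counts had the same spread for every gene and no library effect. The rates therefore do not cover genes whose spread between libraries is wider. Cells were thinned to 2800 UMIs for shares and variation. The members and gene lists were chosen with earlier results of these data known.

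Named genes are, in each comparison, the 10 largest rises and 10 largest falls among called genes whose sign held in each library, with 100 CPM or more as the mean of the higher side, members of the gene lists by role, the 20 genes with the highest variation between cells, and the 5 markers. Folds against 0 UMIs use a floor of 3 counts over the population. Alternatives were DESeq2 1.42.0, its size factors, no filter, other cell minimums, no block, thinned cells and each library left out. Intervals came from scipy 1.17.1, figures from matplotlib 3.10.9, and tables from pandas 2.3.3 under python 3.11.15.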

Additional observations from a re-analysis of the deposited data

Results flagged for a closer look

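In 19 of 141 named genes, 1 of the 4 libraries of tendon fibroblasts 1 lay far from the others (gap over range above Dixon's critical value). For values with a normal spread, chance alone is known to give this in about 1 of 20 genes, and the genes are not independent. That rate does not hold for genes counted in 1 library only, which make up most of the 19. Library 2, with 9 cells, was the highest for Col1a2 (37499 CPM, others 28134 to 29209), Fibin (1188 CPM, others 759 to 810) and Htra1 (1539 CPM, others 714 to 784), and library 4 was the highest for Col3a1 (5675 CPM, others 3966 to 4203). Matn4 was also highest in library 4 (30.2 CPM, others 7.81 to 11.1), on 24 UMIs over all 4 libraries.

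The other 14 genes had UMIs in 1 library only and 0 in the rest, so their gap equals their range by construction and the flag carries no information. In library 1, Bglap2, Cnmd, Col22a1, Col2a1, Gdf10 and Postn each stood at 1.59 CPM, Scara5 at 3.18 CPM and Sfrp1 at 4.77 CPM. In library 3, Cd248, Gli1 and Prss23 stood at 1.35 CPM, Sfrp4 at 2.70 CPM and Col9a1 at 4.04 CPM. In library 4, Fgl2 stood at 7.55 CPM.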

How the results depend on the processing

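Counts of called genes moved with the test and the depth. Against all other cells (1999), thinned cells gave 778 and other fibroblasts only 553, and leaving out a library gave 1290 to 1903. Against tendon fibroblasts 2 (572), DESeq2 gave 371, no filter 1073, thinned cells 302 and a left-out library 362 to 529; with at least 1 cell per sum, 448 were called and 62.3% of them were higher, against 53.3%. Against bursal fibroblasts (777), DESeq2 gave 503, no filter 1216, thinned cells 241 and a left-out library 380 to 892. Without the replicate block, 2048, 547 and 817 genes were called. The median excess variation was 0.281 to 0.325 and the mean share of cells 11.1% to 20.7% with a library left out. A minimum of 10 cells left 1 library with bursal fibroblasts and gave no value.

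Against other fibroblasts only, 6 named genes had the opposite sign to that against all other cells: Col3a1 (-1.47), Pcolce (-1.30), Pdgfra (-1.51), Clec3b (-1.74), Sox5 (-1.24) and Id1 (2.27). The comparison cells differ in that setting. Thinned sums hold fewer UMIs, so fewer genes could be tested (3112, 2430 and 1762). The cause of the other shifts was not tested.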
